A study of Homo sapiens with 6 samples.

Results

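The genes described here encode the enzymes that bring pyruvate into the mitochondrion and burn it in the citric acid cycle, together with their regulators, the malic enzymes and 2 enzymes of side reactions. They were chosen by name as 33 of the 20503 genes named on the array, with the succinate dehydrogenase subunits left out of the list, and each gene was represented by the probe with the highest mean signal over the 6 arrays. The 6 Agilent arrays, in 1 colour, held RNA of 3 experiments with A673/TR/empty cells (control) and 3 with A673/TR/LOX-PP cells. Both derive from A673, a line grown from an Ewing sarcoma, both carry the tetracycline repressor (TR), and both were infected with a lentivirus and selected with zeocin. The control cells carry the empty vector, whereas the LOX-PP cells carry a doxycycline-inducible cDNA of the propeptide of lysyl oxidase and were stimulated with doxycycline for 72 h. The labels give doxycycline at 1 µM for all 6 samples, although the methods name the stimulation plainly only for the LOX-PP cells, and whether the control cultures received it cannot be told from these sources. By the methods, stable clones with the highest mRNA or protein on doxycycline were taken for further work. That rule cannot apply to the control cells, which carry no cDNA. A difference between the selected populations and an effect of LOX-PP therefore cannot be told apart.

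Pyruvate made by glycolysis enters the mitochondrion through a carrier of MPC1 and MPC2 and is turned into acetyl-CoA by the pyruvate dehydrogenase complex, which kinases (PDK) switch off and phosphatases (PDP) switch on again. Citrate synthase joins acetyl-CoA to oxaloacetate, and the cycle then oxidises the product step by step, yielding NADH for respiration and precursors for lipids, amino acids and nucleotides. Pyruvate carboxylase refills the cycle, and the malic enzymes draw malate out of it as pyruvate, giving NADH or NADPH. Tumour cells are known to shift the balance between these routes.

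Some facts of the whole series bear on every value below. LOX, the gene of the insert, has a single probe, whose log2 signal over the 75th percentile of the array was 0.13 ± 0.22 (SD, n = 3) in control and -0.70 ± 0.58 (SD, n = 3) in LOX-PP (adjusted p = 0.217). The probe thus showed no induction, and its place relative to the propeptide cDNA is not known here. In separate experiments the paper reported LOX-PP mRNA induced by doxycycline in clones of the line, by RT-PCR, and the secreted propeptide in their culture medium. LOX-PP replicate 1 was on a slide and scan of its own, and the other 5 arrays shared a slide. All 10 Ewing sarcoma markers, CD99, NKX2-2 and NR0B1 among them, were well above background on all 6 arrays, and none of them passed the test between the groups. Of 5 fibroblast genes, which mesenchymal tumour cells can also express, COL1A2 and LUM fell and FAP rose. The summed linear level of these 5 genes was between 33.9 and 39.0 in control and between 5.16 and 7.32 in LOX-PP, in units of the 75th percentile of the array, and most of that sum is COL1A2. For DCN and PDGFRA the groups overlapped. Genes of the other types did not pass the test. Well above background on all 6 arrays were 3 of 5 epithelial, 5 of 5 leukocyte and 2 of 4 endothelial genes. CDH1 was above background on no array, whereas EPCAM, KRT8 and KRT18 were above it on all 6. Being above background thus did not set the Ewing sarcoma genes apart. Of the 5 fibroblast genes, DCN and COL1A2 were above background on all 6 arrays, and FAP on 2 control and 3 LOX-PP arrays. PDGFRA and LUM were above background on 2 and 3 of the 6 arrays. The part of such markers in the results below was not tested. In RNA from whole cultures, fewer cells that express a gene and less RNA per cell cannot be told apart.

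Of the 33 genes, 32 were well above background on all 6 arrays, so that none of these entered the test through 1 group alone, and PDK4 was the exception. Differences are LOX-PP minus control on the log2 scale, given relative to the median of all 32647 tested probes, which was 0.13, with the standard error of the limma fit. The adjusted p belongs to the difference before that subtraction. A gene is said to have changed where the adjusted p (Benjamini-Hochberg over all tested probes) was under 0.05.

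ME3, a mitochondrial malic enzyme, fell in the LOX-PP cells and was the single member of the list to pass the test. The share of tested probes that passed was 5.66% in either direction and 2.36% towards lower signal, against 1 of 32 genes (3.12%) here. Although single calls were few, 25 of the 32 genes (78.1%) lay below the median of all tested probes, compared with 56.5% of all 16593 named genes taken by their brightest probe. The median difference of the 32 genes was -0.40, and that of all named genes was -0.09. In 11 of the 32 genes (34.4%) every LOX-PP array lay below every control array, and in 1 every LOX-PP array lay above. Among all tested probes the groups separated in 29.5%, downwards in 13.4% and upwards in 16.1%. At an unadjusted p under 0.05, 8 of the 32 genes (25.0%) were lower and PDK2 was higher, compared with 21.3% of all probes in either direction, 9.0% lower and 12.3% higher. Thus DLAT, PDHX and PDHB of the pyruvate dehydrogenase complex, SUCLA2, SUCLG1, SUCLG2 and DLST of the cycle, MPC1, PDP1, ME1 and ME3 separated downwards, and the kinase PDK2 was the one that separated upwards. After quantile normalization the median of the list was -0.15 with 22 genes below, and after cyclic loess -0.22 with 20 genes below, while scaling to the median of the probes well above background left it at -0.40 with 25 below. Without LOX-PP replicate 1, that is, within the shared slide, 25 of 32 genes were again below the median and 2 passed the test, ME3 and PDP1.

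The signal level moves with these counts. Most of the list consists of strongly expressed housekeeping genes, and with the tested probes ranked by mean signal into 10 classes of equal size, 25 of the 32 genes fell in the 3 brightest classes. The median difference of the probes ran from 0.27 in class 2 to -0.25 in classes 8 and 9, and was -0.05 in class 10, the brightest. Among all 7414 named genes in those 3 classes the median was -0.20 and 68.1% were below the median of all probes, while for the 25 genes of the list the median was -0.40 and 20 of them (80.0%) were below. Separation downwards was found for 21.1% of the probes in the 3 brightest classes. The 34.4% given above is over all 32 genes, and ME3, SUCLA2 and SUCLG2, which separated downwards, lie in dimmer classes. The part of the signal level in the differences of single genes was not tested.

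The malic enzymes and pyruvate carboxylase held the largest fall. The log2 signal of ME3 over the 75th percentile was -0.14, 0.06 and -0.14 in control, whereas in LOX-PP it was -4.15, -3.08 and -3.48. The control arrays lay close together and all 3 LOX-PP arrays were far below them. The group means stood 11.3-fold apart, and the difference was -3.62 ± 0.31 (SE, adjusted p = 0.00226). A second, dimmer probe of ME3 read -3.66, -3.77 and -3.75 in control and -6.90, -4.84 and -5.68 in LOX-PP, and was well above background on all control arrays and on none of the LOX-PP arrays. By this probe ME3 was 4.20-fold lower, taking the lowest signal well above background, or the probe's own where higher, as the level of each LOX-PP array. That is 2.07 on the log2 scale, close to the plain difference of the probe of -2.08, so it is an estimate and not a lower bound. The 4.20-fold figure was not tested. In the limma fit the difference of this probe was -2.21 ± 0.49 (adjusted p = 0.0600). ME3 kept its call in all 17 alternative settings, with differences from -3.80 to -2.83 and adjusted p from 0.0004 to 0.0368.

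ME1, the cytosolic malic enzyme that supplies NADPH for lipid synthesis, had 1.94, 1.87 and 2.24 in control and 0.86, 1.37 and 1.42 in LOX-PP. Its groups did not overlap, but the difference of -0.93 ± 0.25 did not pass (adjusted p = 0.123). ME2, the other mitochondrial malic enzyme, had 2.44, 2.20 and 2.94 in control and 1.07, 2.41 and 2.66 in LOX-PP, so that its difference of -0.61 ± 0.45 (adjusted p = 0.592) came largely from LOX-PP replicate 1 and was -0.15 without it. The pyruvate carboxylase gene PC, which makes oxaloacetate from pyruvate, had 2.86, 2.77 and 2.46 in control and 2.23, 2.53 and 2.17 in LOX-PP (-0.51 ± 0.23, adjusted p = 0.381). Thus all 4 genes of this role were below the median of all probes, by very different amounts.

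Because ME3 was the gene that changed, and SUCLA2, DLAT and PDK2 separated the groups, the 250 bases before the start of each are shown, from RefSeq on GRCh38.p14 and in the sense of the gene. Capitals mark matches, on either strand, to an E-box (CACGTG), the SP1 motif (GGGGCGGGG) or the box spelled CCAAT. ME3 lies at chr11:86672617-86672866, minus strand, SUCLA2 at chr13:48001274-48001523, minus strand, DLAT at chr11:112025158-112025407, plus strand, and PDK2 at chr17:50094487-50094736, plus strand.
ME3: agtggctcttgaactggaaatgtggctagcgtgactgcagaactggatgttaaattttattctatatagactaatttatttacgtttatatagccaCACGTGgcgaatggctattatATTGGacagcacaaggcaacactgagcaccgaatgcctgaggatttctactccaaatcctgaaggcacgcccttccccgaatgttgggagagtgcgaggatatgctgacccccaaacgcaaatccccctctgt
SUCLA2: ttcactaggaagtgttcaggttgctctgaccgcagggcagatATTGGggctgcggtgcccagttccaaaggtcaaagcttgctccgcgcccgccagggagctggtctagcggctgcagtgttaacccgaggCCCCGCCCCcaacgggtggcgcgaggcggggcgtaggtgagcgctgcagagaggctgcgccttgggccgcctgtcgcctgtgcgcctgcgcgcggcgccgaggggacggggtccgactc
DLAT: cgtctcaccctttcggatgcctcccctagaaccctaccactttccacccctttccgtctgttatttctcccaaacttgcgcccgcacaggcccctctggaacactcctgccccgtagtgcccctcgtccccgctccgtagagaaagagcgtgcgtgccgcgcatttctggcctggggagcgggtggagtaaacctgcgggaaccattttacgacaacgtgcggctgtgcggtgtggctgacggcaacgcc
PDK2: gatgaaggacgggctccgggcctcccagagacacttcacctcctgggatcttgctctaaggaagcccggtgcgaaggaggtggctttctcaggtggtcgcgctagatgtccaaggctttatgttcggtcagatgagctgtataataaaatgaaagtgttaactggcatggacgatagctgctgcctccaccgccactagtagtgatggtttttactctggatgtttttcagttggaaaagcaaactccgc

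The ME3 window was the least GC-rich of the 31 promoters of the list found in the table, with 46.0% against a median of 69.2%, and the median of all 27305 promoters was 58.0%. It held an E-box that starts 154 bases and a CCAAT box that starts 133 bases before the gene start. An E-box stood in 3 of the 31 promoters (ME3, PDHB and PDP2; 9.68%) and in 6.49% of all promoters. The CCAAT box stood in 16 of the 31 (51.6%) and in 33% of all, and the SP1 motif in 7 (22.6%) and 15.4%. The ETS motif CCGGAAGT, the core read by the FLI1 family, was found in DLST, IDH3B and MDH2 (9.68% against 3.64%). The GGAA repeat GGAAGGAA, the palindromic NRF1 motif, the cyclic AMP response element TGACGTCA and the ERR motif TCAAGGTCA, searched on both strands, were in none of the 31, and in 2.99%, 1.13%, 1.77% and 0.319% of all. A match describes letters in a window of DNA and no binding was measured.

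The pyruvate carrier and the pyruvate dehydrogenase complex were uneven. MPC1, a subunit of the carrier, read 3.69, 4.08 and 3.79 in control and 3.19, 3.67 and 3.60 in LOX-PP. The groups did not overlap by a narrow margin, and the difference of -0.50 ± 0.24 did not pass (adjusted p = 0.419). Its second probe gave -0.64 (adjusted p = 0.366). For MPC2, its partner, the difference was 0.04 ± 0.24, with overlapping groups.

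DLAT, the acetyltransferase core of the complex, read 2.10, 2.28 and 1.78 in control and 0.93, 0.98 and 1.30 in LOX-PP. All 3 LOX-PP arrays lay below all control arrays, with a difference of -1.11 ± 0.24 (adjusted p = 0.0629). It passed when only probes well above background on all 6 arrays were tested (adjusted p = 0.0411) and with gene means (adjusted p = 0.0324). DLAT has 1 probe, so both settings used the same 6 values and changed only the probes or genes tested beside it. Under the other settings its adjusted p ran from 0.0521 to 0.269, with the highest value in the fit without control replicate 1, and was 0.156 with the replicate number as a block. PDHX, which anchors the dehydrogenase subunit DLD to that core, had -0.69 ± 0.22 (adjusted p = 0.214), DLD itself -0.53 ± 0.24 (adjusted p = 0.386), and PDHB, the beta subunit that decarboxylates pyruvate, -0.39 ± 0.20 (adjusted p = 0.501). PDHA1, the alpha subunit that the kinases phosphorylate, went the other way, with 5.23, 5.37 and 5.27 in control and 5.87, 5.27 and 5.71 in LOX-PP (0.20 ± 0.24, adjusted p = 0.478). Its LOX-PP replicate 2 lay within the control range. Thus 4 of the 5 genes of the complex were below the median of all probes and none passed the test.

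Among the regulators of the complex, a phosphatase and a kinase separated the groups in opposite directions, without passing the test. PDP1, a phosphatase that reactivates pyruvate dehydrogenase, read 1.85, 2.55 and 1.61 in control and 1.22, 0.45 and 0.35 in LOX-PP. The groups did not overlap and the difference was -1.45 ± 0.35 (adjusted p = 0.0837). Without LOX-PP replicate 1 it was -1.76 and passed (adjusted p = 0.0453), and leaving out each of the other arrays gave adjusted p from 0.102 to 0.283. PDP2, the other phosphatase, had -0.17 ± 0.24.

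PDK2, a kinase that inactivates the complex, read 1.29, 0.72 and 1.04 in control and 1.82, 1.71 and 1.69 in LOX-PP. Every LOX-PP array was higher, by a difference of 0.60 ± 0.23 that did not pass (adjusted p = 0.128). Its second probe, on another transcript accession, read -0.43, -0.23 and -0.57 in control and 0.66, 0.69 and -0.36 in LOX-PP, a difference of 0.61 ± 0.33 (adjusted p = 0.259), with replicate 3 of LOX-PP inside the control range. PDK3 had 0.17 ± 0.49, the widest error but one in the list. PDK4, a kinase known to rise on fasting and fat oxidation, was well above background on 1 control array and 1 LOX-PP array, read -5.25, -5.56 and -6.31 in control and -5.83, -6.00 and -5.99 in LOX-PP, and was not tested.

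Among the cycle enzymes, SUCLA2, SUCLG2 and DLST had the lowest differences, and none of the cycle enzymes passed the test. SUCLA2, the ADP-forming subunit of succinyl-CoA ligase, read 0.47, 0.34 and 0.20 in control and -1.33, -0.67 and -0.43 in LOX-PP. The groups did not overlap, and the difference was -1.27 ± 0.28 (adjusted p = 0.0688). It passed with the test limited to probes above background on all 6 arrays (adjusted p = 0.0446) and with gene means (adjusted p = 0.0398). SUCLA2 too has 1 probe, so its 6 values were the same in both settings. Under the other settings its adjusted p ran from 0.0550 to 0.281, again highest without control replicate 1, and was 0.147 with the replicate number as a block. SUCLG2, the GDP-forming alternative to SUCLA2, had -0.97 ± 0.23 (adjusted p = 0.0930), and SUCLG1, the alpha subunit that both share, -0.40 ± 0.20 (adjusted p = 0.493), both without overlap.

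DLST, the succinyltransferase of the complex that makes succinyl-CoA, read 3.97, 3.81 and 3.94 in control and 2.36, 3.50 and 3.41 in LOX-PP (-0.95 ± 0.34, adjusted p = 0.226). Here LOX-PP replicate 1 lay over 1 log2 unit below the other LOX-PP arrays, and without it the difference was -0.62. OGDH, the dehydrogenase subunit of the same complex, read -2.18, -2.39 and -1.85 in control and -1.62, -2.24 and -1.43 in LOX-PP, an overlapping 0.25 ± 0.29 (adjusted p = 0.507).

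For citrate synthase, the entry enzyme, the brighter probe of CS read 5.54, 5.70 and 5.76 in control and 6.33, 5.52 and 5.98 in LOX-PP (0.15 ± 0.27, adjusted p = 0.595). The second probe read 4.55, 4.27 and 4.31 in control and 4.07, 3.94 and 4.01 in LOX-PP, a difference of -0.50 ± 0.20 (adjusted p = 0.343), so the probes of CS disagreed in direction. The mitochondrial malate dehydrogenase MDH2, which closes the cycle, had 0.00 ± 0.21, and fumarase (FH) -0.17 ± 0.38. Of the NAD-dependent isocitrate dehydrogenase, the catalytic subunit IDH3A had -0.48 ± 0.28, IDH3B -0.17 ± 0.20 with a second probe at -0.08, and IDH3G -0.03 ± 0.20. ACO1, a cytosolic aconitase that also binds mRNAs of iron metabolism, had -0.41 ± 0.26. None of these passed, with adjusted p from 0.524 to 0.964, and under 1 or more of the alternative settings the sign of CS, MDH2, FH, IDH3B and IDH3G turned.

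None of the NADP-dependent and cytosolic forms passed the test. IDH1, the cytosolic isocitrate dehydrogenase, read 4.31, 4.04 and 4.64 in control and 2.37, 3.19 and 4.36 in LOX-PP. The LOX-PP arrays spanned a wide range that reached into that of the controls, so that -1.15 ± 0.49 did not pass (adjusted p = 0.287), and it was -0.72 without LOX-PP replicate 1. IDH2, its mitochondrial counterpart, read 3.22, 3.32 and 3.44 in control and 2.67, 3.31 and 4.003 in LOX-PP. The means of its groups were 3.33 ± 0.11 (SD, n = 3) and 3.33 ± 0.67 (SD, n = 3), equal to the second decimal but with a wider spread in LOX-PP, and the difference of -0.13 turned to 0.17 without LOX-PP replicate 1. MDH1, the cytosolic malate dehydrogenase of the malate shuttle, had 0.01 ± 0.23 with its brighter and -0.18 ± 0.21 with its dimmer probe.

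Neither enzyme of the side reactions passed the test. GLUD1, which feeds glutamate into the cycle, read 3.59, 3.72 and 3.41 in control and 3.51, 3.08 and 3.30 in LOX-PP (-0.40 ± 0.22, adjusted p = 0.526). D2HGDH, which removes the hydroxyglutarate that mutant isocitrate dehydrogenases produce in excess, had -0.26 ± 0.21 (adjusted p = 0.770).

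**Figure D1:**
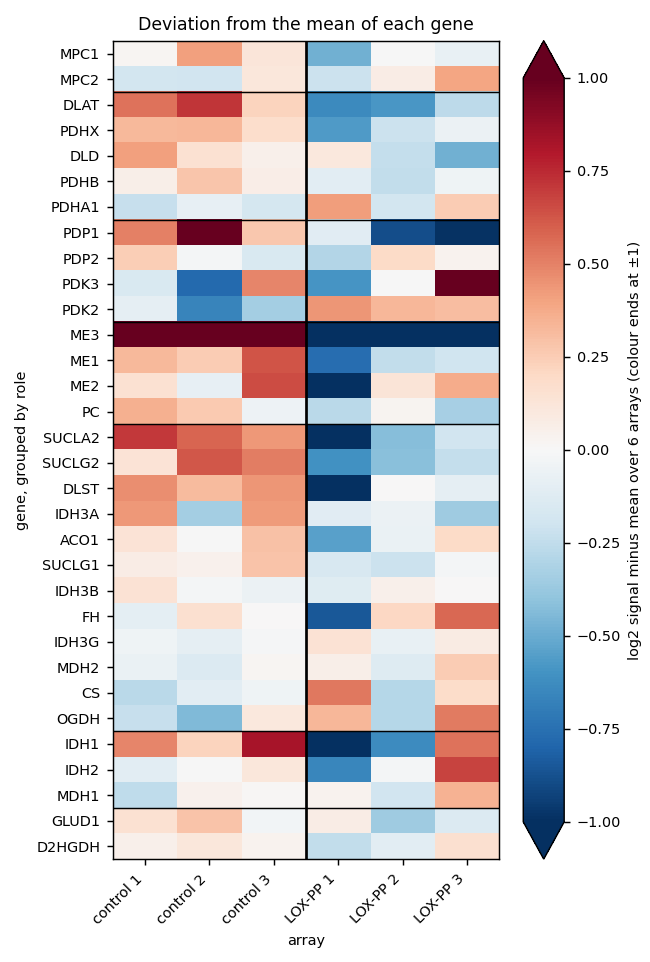
Deviation of the log2 signal of each gene from its own mean over the 6 arrays (colour, ending at ±1), with arrays as columns and the 32 genes as rows grouped by role. LOX-PP replicate 1 has the lowest value in 17 of the 32 genes, among them IDH1, DLST, ME2 and FH.

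LOX-PP replicate 1 carried the lowest value of the 6 arrays in 17 of the 32 genes (53.1%), compared with 30.4% of all tested probes and 33.2% of the probes in the 3 brightest classes. Control replicate 3 was lowest in 0 of the 32, and each of the other arrays in 2 to 5. The slide and scan of that array and its own culture cannot be told apart. The median of the 32 genes, each taken relative to its mean, was 0.13, 0.08 and 0.11 in control and -0.26, -0.16 and 0.02 in LOX-PP. All tested probes together gave -0.08, -0.15 and 0.04 in control and -0.11, 0.10 and 0.07 in LOX-PP. Thus the list stood above the other probes on every control array and below them on every LOX-PP array, which is the lower median given above seen by array.

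The members lie on 18 chromosomes. SUCLA2 is the one member on chromosome 13, where 82.3% of 283 genes lay below the median of all probes and the median difference was -0.83, compared with -1.27 for SUCLA2. PDP1, at -1.45, is the one on chromosome 8, where the median was -0.42 over 558 genes and 73.3% lay below. The 4 members on chromosome 11, ME3, DLAT, PDHX and PC, all lay below, from -3.62 to -0.51. Of the 1004 genes of that chromosome 69.5% lay below, with a median of -0.27. The 3 members on chromosome X, PDHA1, IDH3G and PDK3, ran from -0.03 to 0.20 beside 0.03 over 591 genes. What the chromosome contributes to the difference of any one gene was not tested.

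A list of 63 further genes of the same pathways was read in the same way, covering succinate dehydrogenase, other cycle and pyruvate enzymes, lipoate and thiamine cofactors, glutamine and odd-chain substrates, carriers and regulators. Of its 59 tested genes, 2 rose and 2 fell, which is near the shares of 3.31% higher and 2.36% lower among all tested probes. In all, 44 of the 59 lay below the median of all probes, with a median difference of -0.35, compared with 56.5% and -0.09 for all named genes. OXCT1, which uses succinyl-CoA to activate ketone bodies, read 2.28, 2.32 and 2.16 in control and 1.12, 1.05 and 1.28 in LOX-PP (-1.23 ± 0.20, adjusted p = 0.0267). PCCA, a subunit of propionyl-CoA carboxylase on chromosome 13, had -1.25 ± 0.21 (adjusted p = 0.0281). PPARA, a nuclear receptor that turns on fat oxidation, read -4.01, -5.02 and -3.60 in control and -2.62, -2.02 and -1.87 in LOX-PP and rose by 1.92 ± 0.41 (adjusted p = 0.0374). SLC16A7, a monocarboxylate carrier of the plasma membrane, rose by 1.75 ± 0.36 (adjusted p = 0.0310), on a probe above background on 1 of 3 control and 2 of 3 LOX-PP arrays. The number of calls was 0 of 59 in the fits that left out control replicate 1, control replicate 2, LOX-PP replicate 2 or LOX-PP replicate 3, and 0 with no filter on dim probes.

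Of the 4 succinate dehydrogenase subunits, which stand between the cycle and the respiratory chain, SDHD had -1.07 ± 0.34 (adjusted p = 0.169), SDHB -0.67 ± 0.26, SDHC -0.35 ± 0.19 and SDHA 0.02 ± 0.25, and none passed. PDK1, the remaining kinase of pyruvate dehydrogenase, had -0.48 ± 0.36 (adjusted p = 0.626).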

How the data were processed

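Gene expression of 3 control and 3 LOX-PP cultures was measured on Agilent SurePrint G3 arrays (Cy3). The authors deposited the spot intensity, corrected for background by Agilent Feature Extraction (version 10.7 per the labels), with flags for each spot. They also deposited a table of processed log2 values, which matched the values used here, after centring each probe on its median, within 0.02 on all 50528 probes with a value on every array. Column medians of that table ran from -0.34 to 0.42, and who made the centring is not given in the sources used here.

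Control spots and those with an outlier flag (213 to 353 per array) were dropped. The log2 signal of a probe is the mean of its spots, less the 75th percentile of its array. Saturation was flagged at 0 gene spots, and 56.9% to 74.8% of them were well above background. Testing took the 32647 of 50599 probes that passed this flag on 3 or more of 6 arrays, in limma (version 3.58.1, R 4.3.3), LOX-PP against control, without a block, with Benjamini-Hochberg adjustment over all of them at 0.05. The number of arrays limits the precision. Accessions were matched to RefSeq symbols (28174 probes, 55.7%). The array was designed on an older genome build, so no coordinates are given for probes. Promoters were matched by symbol (31 of 33 members; PDP1 and OGDH were not matched).

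All members are named, and values on every array are given for those past the threshold, the 3 largest rises and falls, and 1 or more fixed per role. Members and lists were chosen with earlier results of these data known. Further genes were shown in full after their values were seen. Alternatives were 3 other scalings, normexp (offset 50, on the median signal because the files used hold no mean), the authors' table, 2 other filters, the slide or replicate number as a block, the methods' t-test, gene means, and leaving out each array.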

Additional observations from a re-analysis of the deposited data

How the results depend on the processing

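ME3 was called in all 17 alternatives, and of the 544 alternative values of the 32 genes 495 kept both sign and side of the threshold. The number of genes called was 3 with probes above background on all 6 arrays and 3 with gene means (DLAT, ME3 and SUCLA2), 2 with the slide as a block (ME3 and PDP1), which equals leaving out LOX-PP replicate 1, and 1 to 2 when single arrays were left out. The median difference of the list was -0.147 with quantile normalization, -0.222 with cyclic loess and -0.572 with no filter, and ran from -0.437 to -0.267 when single arrays were left out. The median of all probes, 0.13, was then -0.03, -0.02 and 0.30 for the same settings. The probes called among all tested were 516 with no filter and 566 by the methods' t-test (6430 at their unadjusted threshold), with a range of 407 to 2062 when single arrays were left out, being 407 without control replicate 1, 444 without control replicate 2, 892 without LOX-PP replicate 2 and 1037 without LOX-PP replicate 3. They were 1080 higher and 769 lower in the text, 908 and 983 with quantile normalization, and 952 and 998 with cyclic loess. Further pathway genes called were 4 in the text, 0 with no filter, 2 by the methods' t-test, and 0 to 4 when single arrays were left out. The cause was not tested.

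Same-numbered deviations from the group means correlated at 0.267, -0.39 and 0.227, and those of unlike number at -0.464 to 0.391. With deviations taken within groups of 3 arrays, these values cannot decide whether the replicate numbers pair the samples. With the replicate number as a block, 860 probes, 1 gene of the list and 1 further pathway gene were called.

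The sign turned in 10 genes that were never called. With quantile normalization the difference was -0.066 for CS, 0.107 for FH, 0.145 for IDH2, 0.091 for IDH3B, 0.223 for IDH3G, -0.242 for MDH1 and 0.061 for PDP2. With cyclic loess it was 0.007 for FH, 0.048 for IDH2, 0.155 for IDH3G, 0.088 for MDH2 and 0.056 for PDP2. With no filter it was -0.024 for CS, -0.17 for MDH1, -0.133 for MPC2 and -0.003 for PDK3. With the slide as a block it was -0.076 for CS, 0.208 for FH, 0.165 for IDH2 and -0.017 for MDH1. With gene means it was -0.091 for CS, 0.052 for IDH3G, -0.008 for MDH1 and 0.077 for MDH2. With normexp it was -0.094 for MDH1 and -0.045 for MPC2, and with probes above background on all 6 arrays 0.028 for IDH3G and 0.053 for MDH2. The 2 other filters did not change the signals of these genes. There the sign turned because the subtracted median of all probes moved from 0.13 to 0.30 with no filter and to 0.07 with the stricter one. The same holds for IDH3G and MDH2 with gene means, where each has 1 probe and the median was 0.05. Leaving out single arrays gave ranges of -0.076 to 0.443 for CS, -0.466 to 0.208 for FH, -0.464 to 0.165 for IDH2, -0.112 to 0.112 for IDH3G, -0.136 to 0.211 for MDH1, -0.101 to 0.168 for MDH2, -0.112 to 0.155 for MPC2 and -0.272 to 0.506 for PDK3.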
